A study of Mus musculus with 48 samples.

Results

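The 10 genes described here encode the alpha- and beta-tubulin isotypes *Tuba1a*, *Tuba1b*, *Tuba1c*, *Tubb2a*, *Tubb2b*, *Tubb3*, *Tubb4a*, *Tubb4b*, *Tubb5* and *Tubb6*. They were picked by name out of the 46983 genes counted in 48 bulk RNA libraries of mouse brain, and all 10 passed the filter on low counts. The names were picked after results of these data were known, and which values entered that choice is not recorded. The differences between injured and sham animals, and the changes of those differences with time, are therefore treated as values the genes were chosen by. For these genes they are given as descriptions, and whether a gene passed the threshold used over all genes is stated to describe its size and is no independent test. Permanent middle cerebral artery occlusion (MCAO) was made in 3-month-old male C57Black/6 mice by coagulating and cutting the artery, which leaves a small lesion in the parietal cortex, and sham mice had the same surgery without the coagulation. By the study's methods the injured cortical region, with affected and unaffected tissue together, was collected at 3 h, 12 h, 24 h, day 3 and day 7. Elsewhere the study describes the bulk samples as almost the whole hemisphere on the injured side, so the extent of the tissue is uncertain. The groups held 5 MCAO libraries at each time except 24 h with 4, 4 sham libraries at each time, and 4 libraries of intact cortical tissue from mice of the same age as control. The labels give no genotype or transgene for any group. The study's text counts its bulk replicates in mice, and the labels do not tie a library to an animal.

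Tubulin is the building block of microtubules, a dimer of 1 alpha and 1 beta subunit, and mammals carry several genes for each subunit. *Tuba1a*, *Tubb2a*, *Tubb2b* and *Tubb3* are the isotypes of developing and mature neurons, with *Tubb3* the classical neuronal marker, and *Tubb4a* is prominent in oligodendrocytes and neurons. *Tubb5*, *Tubb4b*, *Tuba1b* and *Tuba1c* are made in many cell types, and *Tubb6* is an isotype of mostly non-neuronal tissues. Cells also adjust tubulin messenger RNA to the pool of free subunits. In tissue, fewer cells of a type and less RNA per cell cannot be told apart.

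Each library held between 1522668 and 2826735 counts on genes, and levels are given in CPM, counts scaled to a common library size by TMM. Because the kit reads only the 3′ end of a transcript, levels are compared here between libraries for 1 gene, and different genes are set side by side only as shares of counts. Neuronal markers were present in every library, from 4605 to 9142 CPM summed over 10 genes, and markers of cortex summed to between 418 and 1436 CPM over 5 genes. Striatal markers ranged from 102 to 2873 CPM over the 5 of 6 listed genes that were tested. A few libraries stood apart in their markers. Replicate A of MCAO on day 3 held 511 CPM of microglial markers, against 877 to 1574 CPM in the other 4, and replicate C of MCAO on day 7 held 5453 CPM of fibroblast markers, against 153 to 480 CPM in the others. Replicate D of MCAO at 24 h held 2873 CPM of striatal markers, against 225 to 1228 CPM in the others. It held 418 CPM of cortical markers, against 913 to 1030 CPM. Replicate E of MCAO at 12 h held 1685 CPM of granulocyte markers, against 11.9 to 176 CPM in the others. For *Tubb6* and *Tuba1c* the log2 fold changes on day 3 and day 7 are given with and without the library concerned. Shares, correlations and marker calls include all these libraries unless stated.

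Coordinates are those of GRCm38. *Tubb6* (ENSMUSG00000001473.6) lies on chromosome 18 from 67390717 to 67402749. The alpha genes *Tuba1b* (98931425 to 98934565), *Tuba1a* (98949837 to 98953703) and *Tuba1c* (99029891 to 99038110) are neighbours on chromosome 15. *Tubb2a* (34074274 to 34078007) and *Tubb2b* (34126748 to 34130466) are neighbours on chromosome 13. *Tubb5* (35833921 to 35838306) and *Tubb4a* (57080066 to 57087782) are on chromosome 17, *Tubb3* (123411424 to 123422015) on chromosome 8 and *Tubb4b* (25222160 to 25224702) on chromosome 2.

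Several of the genes resemble each other closely enough for their reads to be confused. Of the 316 stretches of 85 bases, the read length, in the last 400 bases of each reference transcript, those of *Tubb6*, *Tubb5*, *Tubb2b*, *Tubb3* and *Tubb4a* were found in 0 other genes' transcripts. In *Tubb2a*, 77 of 316 were shared with *Tubb2b* or a pseudogene, and in *Tubb4b*, 41 of 316 with a pseudogene. The alpha genes shared most, 119 stretches in *Tuba1a*, 152 in *Tuba1b* and 172 in *Tuba1c*, with each other and with pseudogenes. Between 24.0% and 37.3% of the reads tallied in a library had no unique alignment and were left out of the gene counts, so the counts of *Tubb2a*, *Tubb4b* and the alpha genes are uncertain in how reads were split or lost.

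The upstream sequences of 3 genes are shown because their messages behaved differently below, *Tuba1c* at very low level in sham and control and higher after MCAO, *Tubb2a* varying with *Tuba1a* and *Tuba1b* from library to library, and *Tubb4b* close to its sham level at most times. Each is the 250 bases before the annotated start in RefSeq on GRCm38.p6, 5′ to 3′ on the strand of the gene, and 8 of the 10 genes matched an entry. Capitals mark matches on either strand to 5 motifs searched by letters, the CCAAT box (CCAAT), the cyclic AMP response element (TGACGTCA), the AP-1 site (TGACTCA), the GC box (GGGCGG) and the TATA box (TATAAA). The windows are chr15:99029641-99029890 on the plus strand for *Tuba1c*, and chr13:34078009-34078258 and chr2:25224703-25224952 on the minus strand for *Tubb2a* and *Tubb4b*.
Tuba1c: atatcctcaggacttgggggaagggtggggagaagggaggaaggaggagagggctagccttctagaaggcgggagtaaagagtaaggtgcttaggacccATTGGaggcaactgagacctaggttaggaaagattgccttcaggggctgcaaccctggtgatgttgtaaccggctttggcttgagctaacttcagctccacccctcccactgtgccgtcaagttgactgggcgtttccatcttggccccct
Tubb2a: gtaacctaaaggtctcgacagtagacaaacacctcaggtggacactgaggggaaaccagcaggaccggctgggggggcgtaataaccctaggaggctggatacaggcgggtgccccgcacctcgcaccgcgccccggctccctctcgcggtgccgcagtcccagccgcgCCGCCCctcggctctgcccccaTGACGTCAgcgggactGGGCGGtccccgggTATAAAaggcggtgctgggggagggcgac
Tubb4b: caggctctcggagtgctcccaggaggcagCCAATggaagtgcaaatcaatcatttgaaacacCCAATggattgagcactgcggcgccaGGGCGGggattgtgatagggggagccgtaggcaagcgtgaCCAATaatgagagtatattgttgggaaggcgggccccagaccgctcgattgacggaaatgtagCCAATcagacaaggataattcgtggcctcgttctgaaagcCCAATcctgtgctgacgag
The *Tubb2a* window held 1 cyclic AMP response element, 2 GC boxes and 1 TATA box, the *Tuba1c* window 1 CCAAT box, and the *Tubb4b* window 5 CCAAT boxes and 1 GC box. Over 32536 RefSeq promoter windows of the same length, 33.8% held a CCAAT box, 2.775% held 3 or more of them, 1.555% the cyclic AMP response element, 4.45% the AP-1 site, 33.0% a GC box and 12.3% a TATA box. The other entries were *Tubb5* with 2 CCAAT boxes, *Tuba1a* with 1 CCAAT box and 1 GC box, *Tubb3* with 1 CCAAT box and 2 GC boxes, *Tuba1b* with 2 GC boxes, and *Tubb4a* with 0 matches to any of the 5. A match is a description of letters, and no binding was measured.

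MCAO was compared with sham at each time, which asks what the occlusion adds to the surgery. A call required an edgeR p, adjusted by Benjamini-Hochberg over all tested genes, under 0.01 together with an absolute log2 fold change over 0.58. Standard errors here were worked back from the test, as the absolute log2 fold change over the square root of its F statistic. They are approximate, most of all for genes with few counts, and those of different comparisons need not combine. Of the 10 genes *Tubb6* and *Tuba1c* passed this threshold at 1 or more times, with higher levels after MCAO. The calls were 0 of 10 at 3 h, 2 at 12 h (both genes), 1 at 24 h (*Tubb6*), 2 on day 3 and 2 on day 7 (both genes each), and 0 of 10 were lower at any time. Over all 19970 genes tested, the percentage called was 0.11 at 3 h, 0.411 at 12 h, 0.0901 at 24 h, 4.02 on day 3 and 3.5 on day 7, and since the genes were chosen with these contrasts known, nothing is read from the comparison. At 3 h, where edgeR called 0 members, 2 had an unadjusted p under 0.05 (*Tubb6* and *Tuba1c*), as had 1688 of all tested genes, and DESeq2 also called 0. The median log2 fold change of the 10 genes was 0.10, 0.39, 0.42, -0.06 and 0.11 at the 5 times in order, beside 0.00, 0.01, 0.02, 0.01 and 0.06 over all tested genes. Scaling to the spike-ins moved the median of all genes by -0.10, -0.12, 0.12, -0.24 and 0.09.

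*Tubb6* was close to absent without an occlusion. In the 4 control libraries it had 1 count in all, and in the 20 sham libraries it ranged from 0 to 7 counts, so that sham levels lay between 0 and 3.27 CPM. At 3 h after MCAO the 5 libraries held 8.44, 6.61, 12.6, 6.89 and 7.74 CPM (14 to 30 counts), each above the 4 shams at 0.791, 0.576, 0.448 and 0 CPM. The fitted log2 fold change was 3.99 (standard error 0.91), which did not pass the call.

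At 12 h the MCAO libraries held 5.19, 13.6, 18.8, 6.47 and 12.5 CPM of *Tubb6*, while 3 of the 4 shams were at 0 and the other at 0.369 CPM. The groups did not overlap, and the gene was called with a log2 fold change of 6.03 (standard error 1.07). With 1 count over the 4 shams that fold depends on the prior count of the fit. The ratio of summed counts, 110 against 1, was 98.3 after scaling, with an exact 95% interval from 17.3 to 3917 that covers counting error only. At 24 h the MCAO libraries held 13.6, 19.6, 18.2 and 34.2 CPM against shams at 1.19, 2.53, 0 and 0.524 CPM, a log2 fold change of 4.28 (standard error 0.81) that was called. Without MCAO replicate D, or without any 1 of the 4 shams, the log2 fold change at 24 h lay between 3.90 and 5.07 and the call was lost. Replicate D held the highest level and also stood apart in striatal and cortical markers. The part of its tissue mix in that level was not tested.

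The highest levels of *Tubb6* were on day 3. The MCAO libraries held 1.07, 24.4, 52.9, 27.3 and 56.4 CPM against shams at 1.81, 1.39, 3.27 and 1.41 CPM, a log2 fold change of 4.01 (standard error 0.67) that was called. Replicate A, the first value, lay below every sham, and the other 4 lay above all of them. Without replicate A the log2 fold change was 4.32 and the call was kept. On day 7 the MCAO libraries held 2.31, 0, 23.8, 3.84 and 6.89 CPM against shams at 0, 0.467, 1.09 and 0.456 CPM. The gene was called with a log2 fold change of 3.68 (standard error 0.93), but replicate B had 0 counts of 1889621 and the groups overlapped. Without replicate C it fell to 2.51 and was no longer called, and the call was also lost without MCAO replicate E or any 1 of the 4 shams. With only the day 7 MCAO and sham libraries in the fit the value was 3.68 and was not called.

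*Tuba1c*, a widely made alpha isotype, was also at a few counts in control and sham, where it ranged from 0 to 10 counts and from 0 to 3.90 CPM. At 3 h after MCAO it was at 12.1, 6.61, 30.6, 6.89 and 9.57 CPM, all above the shams at 1.98, 0, 2.69 and 0.545 CPM. The log2 fold change was 3.17 (standard error 0.85) and was not called. At 12 h the MCAO libraries held 15.6, 16.5, 31.8, 20.6 and 49.4 CPM against 1.68, 2.09, 1.11 and 3.90 CPM in sham, a log2 fold change of 3.54 (standard error 0.75) that was called. The call at 12 h was lost without MCAO replicate C or E or without any 1 of the 4 shams, with the log2 fold change between 3.20 and 4.02 over all libraries left out. Replicate E held the highest level and also stood apart in granulocyte markers, whose part in that level was not tested. At 24 h the MCAO libraries held 27.2, 21.5, 28.8 and 13.5 CPM against 3.55, 2.53, 2.44 and 0.524 CPM, a log2 fold change of 3.34 (standard error 0.81) that was not called although the groups lay far apart.

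On day 3 *Tuba1c* was at 5.34, 41.6, 147.8, 81.5 and 123.4 CPM after MCAO, against shams at 1.45, 1.85, 0.934 and 0.937 CPM. The log2 fold change of 5.88 (standard error 0.79) was the largest of this gene and was called. Replicate A was again the lowest, though still above the shams, and without it the log2 fold change was 6.18. On day 7 it was at 8.08, 7.13, 84.5, 9.12 and 4.38 CPM against 1.72, 2.80, 2.73 and 2.28 CPM, a log2 fold change of 3.19 (standard error 0.76) that was called. Replicate C carried much of that value, and without it the log2 fold change was 1.57 and no longer called. The call was also lost without any 1 of the 4 shams, and with only the day 7 MCAO and sham libraries in the fit, where the value was 3.20.

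**Figure D1:**
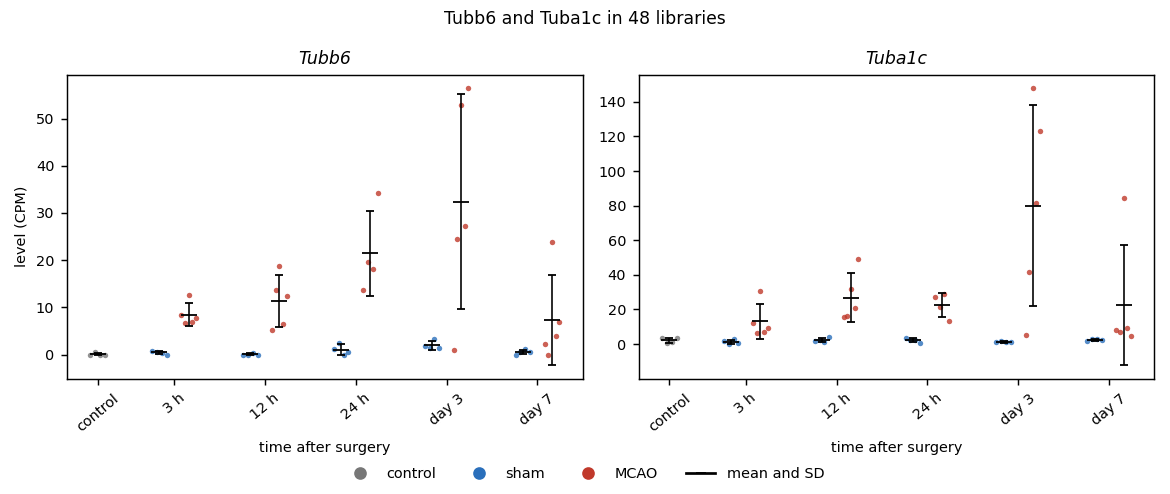
Level of *Tubb6* (left) and *Tuba1c* (right) in CPM in each of 48 libraries (points), by time after surgery, with the mean and SD of each group. Sham and control libraries stayed at or under 3.90 CPM for both genes, and the MCAO libraries spread widest on day 3, where replicate A stayed at 1.07 and 5.34 CPM.

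Counted by overlap alone, all MCAO libraries lay above all shams for *Tuba1c* at each of the 5 times and for *Tubb6* at 3 h, 12 h and 24 h. The other 8 genes overlapped between MCAO and sham at every time. The share of all tested genes whose MCAO and sham libraries did not overlap was 3.58% at 3 h, 3.29% at 12 h, 5.84% at 24 h, 7.14% on day 3 and 10.5% on day 7, printed as background and with nothing read from it.

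**Figure D2:**
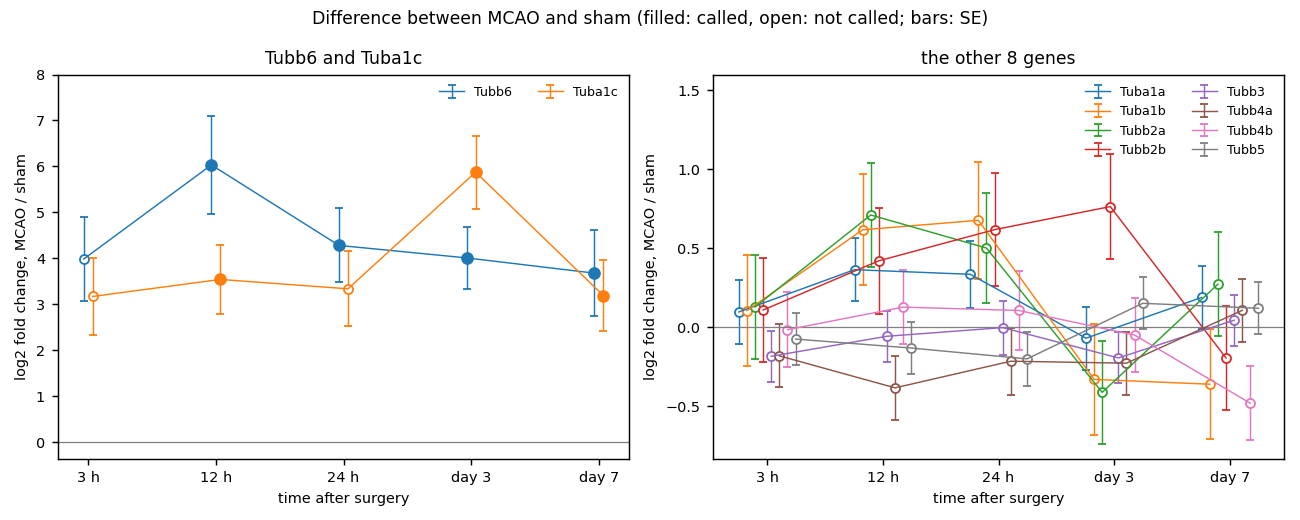
Log2 fold change of MCAO against sham (vertical axis) at each time for *Tubb6* and *Tuba1c* (left) and the other 8 genes (right). Bars are the approximate standard errors worked back from the test, and filled points mark where the gene was called. *Tubb6* and *Tuba1c* stayed between 3.17 and 6.03, and the other 8 between -0.48 and 0.76 with 0 calls.

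Whether the MCAO-sham difference changed with time was described in the same fit. Of the 10 genes 0 were called between 3 h and 12 h (0.01% of all genes), between 12 h and 24 h (0.01%), between 24 h and day 3 (0.01%), between day 3 and day 7 (0%), and between the mean of day 3 and day 7 and the mean of the first day's 3 times (1.27%). By unadjusted p under 0.05 there were 0, 0, 0, 2 and 1 members, beside 1421, 1015, 1765, 3231 and 3556 of all tested genes, and DESeq2 called 0 in each. On the log2 scale the difference of *Tuba1c* changed by 2.54 (standard error 1.31) from 24 h to day 3 and by -2.68 (standard error 1.24) from day 3 to day 7. That of *Tubb6* changed by 2.05 (standard error 1.85) from 3 h to 12 h and by -0.33 (standard error 2.14) from day 3 to day 7. These changes were not called, and neither gene's order of times was resolved.

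Markers of other cells moved over the same libraries. Of 6 microglial markers 4 were called higher after MCAO on day 3 and 2 on day 7, of 4 markers of other peripheral myeloid cells 2 and 2, of 5 fibroblast markers 3 and 4, and of 5 proliferation markers 4 and 4. At 12 h 1 microglial marker was called lower. Granulocyte markers were called higher for 2 of 4 genes at 12 h and on day 3, and endothelial markers for 2 of 5 on day 3. On day 3 the proliferation markers summed to between 16.6 and 334 CPM after MCAO, with the lowest in replicate A, and to between 6.09 and 19.6 CPM in sham. The peripheral myeloid markers summed to between 23.0 and 864 CPM after MCAO and between 6.07 and 16.4 CPM in sham, with 1 of the 4 at 0 in all shams of that day. On day 7 replicate C held 4067 CPM of them against 93.5 to 184 CPM in the other 4 MCAO libraries. At 3 h 0 markers of these 6 lists were called, and *Tubb6* and *Tuba1c* lay above every sham. At that time the microglial markers overlapped, at 225 to 305 CPM after MCAO and 247 to 350 CPM in sham, but proliferation markers (17.8 to 21.7 against 4.93 to 9.49 CPM) and granulocyte markers (9.64 to 59.5 against 2.30 to 7.17 CPM) did not. Astrocyte markers did not overlap either and were lower after MCAO. They summed to between 3094 and 3288 CPM after MCAO and between 3647 and 3875 CPM in sham. The part of these cells in the levels of *Tubb6* and *Tuba1c* was not tested.

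**Figure D3:**
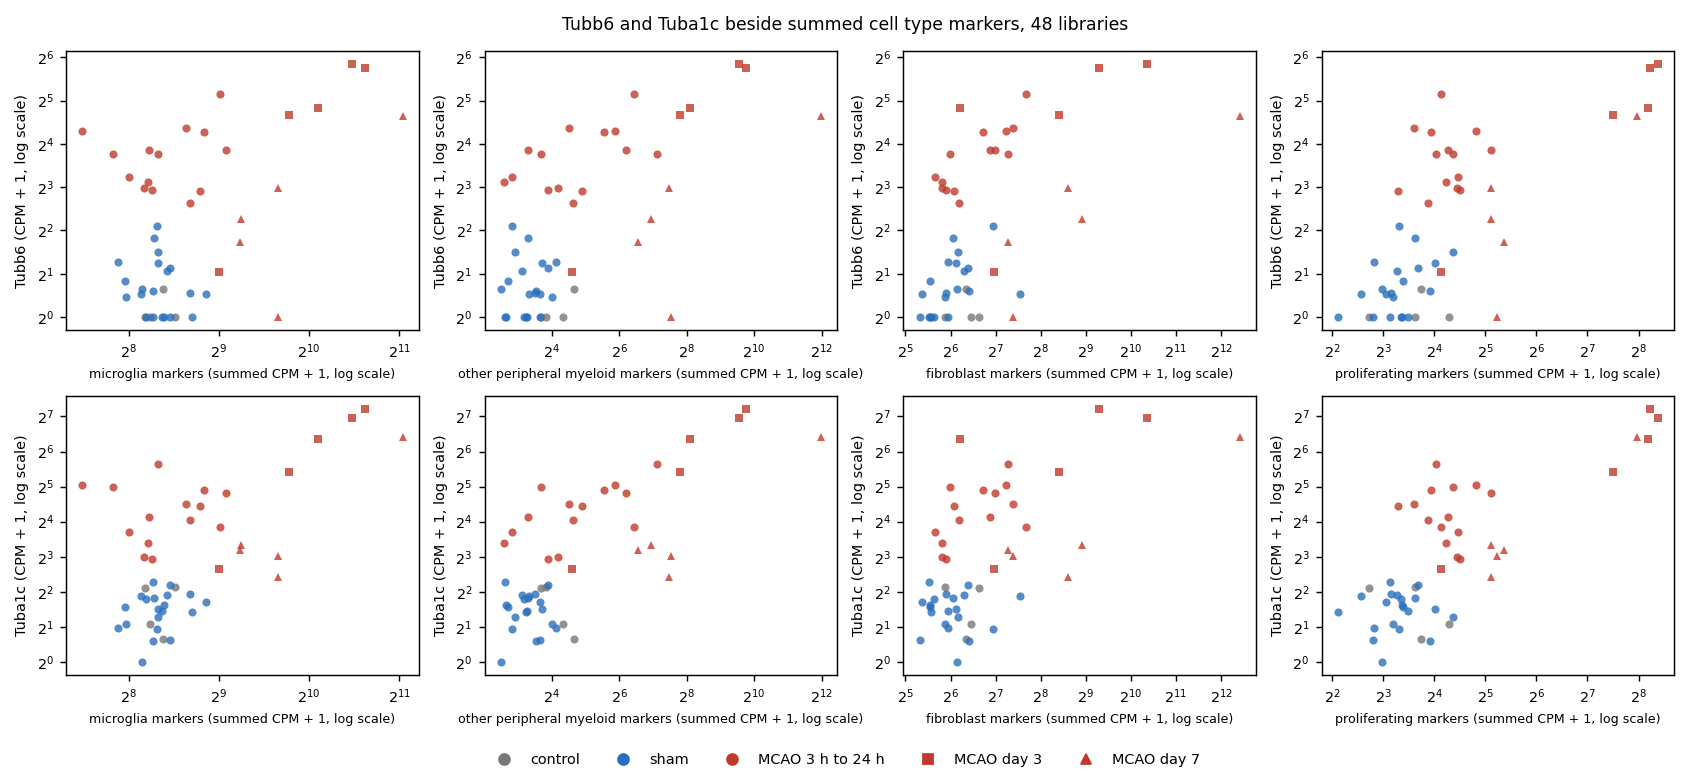
*Tubb6* (upper row) and *Tuba1c* (lower row) in CPM + 1 against the summed CPM + 1 of 4 marker lists, both on log scales, 1 point per library. On day 3 (squares) replicate A was the lowest of its group in both genes and in microglial, peripheral myeloid and proliferation markers, though not in fibroblast markers, and on day 7 (triangles) replicate C was the highest of its group in all.

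The 8 remaining genes were not called at any time. *Tubb2b*, an isotype of developing neurons, had the largest difference among them. On day 3 the MCAO libraries held 199, 319, 564, 659 and 449 CPM and the shams 162, 253, 307 and 310 CPM, a log2 fold change of 0.76 (standard error 0.33). Replicate A was the lowest, and without it the value was 0.95, also not called. At 24 h the log2 fold change was 0.62 (standard error 0.36) and without MCAO replicate A 0.14, and on day 7 it was -0.19 (standard error 0.33).

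*Tubb2a*, a neuronal isotype, and *Tuba1b*, a widely made alpha isotype, differed most at 12 h and 24 h, with a very wide spread. At 12 h *Tubb2a* was at 1017, 548, 263, 196 and 922 CPM after MCAO and at 216, 358, 558 and 308 CPM in sham, a log2 fold change of 0.71 (standard error 0.33). *Tuba1b* was at 1373, 400.4, 233, 206 and 1038 CPM in the same MCAO libraries and at 261, 325, 724 and 385 CPM in the shams, a log2 fold change of 0.62 (standard error 0.35). Replicates A and E were high for both genes and C and D were low, below most shams. Reads with no unique alignment were 25.9% and 27.1% of those tallied in A and E, and 32.1% to 34.7% in the other MCAO libraries. In the highest sham, replicate C, they were 24.0%, and their part in these levels was not tested. At 24 h *Tuba1b* was at 1159, 628, 466 and 268 CPM against 514, 334, 357 and 373 CPM, a log2 fold change of 0.68 (standard error 0.37), and without replicate A, the first value, it was 0.19. *Tubb2a* at 24 h was at 983, 669, 382 and 361 CPM against 510, 340, 277 and 565 CPM, a log2 fold change of 0.50 that was 0.14 without replicate A. In that replicate 27.5% of the reads tallied had no unique alignment, against 31.3% to 33.8% in the other MCAO libraries. On day 3 both were lower than sham on average, by -0.41 for *Tubb2a* and -0.33 for *Tuba1b*, and neither was called.

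*Tuba1a*, the main alpha isotype of neurons, was at 1374 ± 623 CPM (SD, n = 5) at 12 h after MCAO and 1067 ± 129 CPM (SD, n = 4) in sham, a log2 fold change of 0.36. Its range over the other times was from -0.07 to 0.34, and at 3 h its sign turned under scaling to the spike-ins. *Tubb5*, a widely made beta isotype, ranged from -0.20 to 0.15, and the value of 0.15 on day 3 was -0.09 under spike-in scaling. *Tubb3* ranged from -0.19 to 0.04, with the value of 0.00 at 24 h moved to 0.12 by spike-in scaling, and *Tubb4a* from -0.38 to 0.11. *Tubb4b*, a beta isotype found in cilia among other places, ranged from -0.48 on day 7 to 0.13 at 12 h. The day 7 value set MCAO libraries at 94.0, 83.5, 75.5, 82.0 and 70.8 CPM against shams at 81.8, 96.6, 98.1 and 176.1 CPM, so a single sham stood far above the rest.

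**Figure D4:**
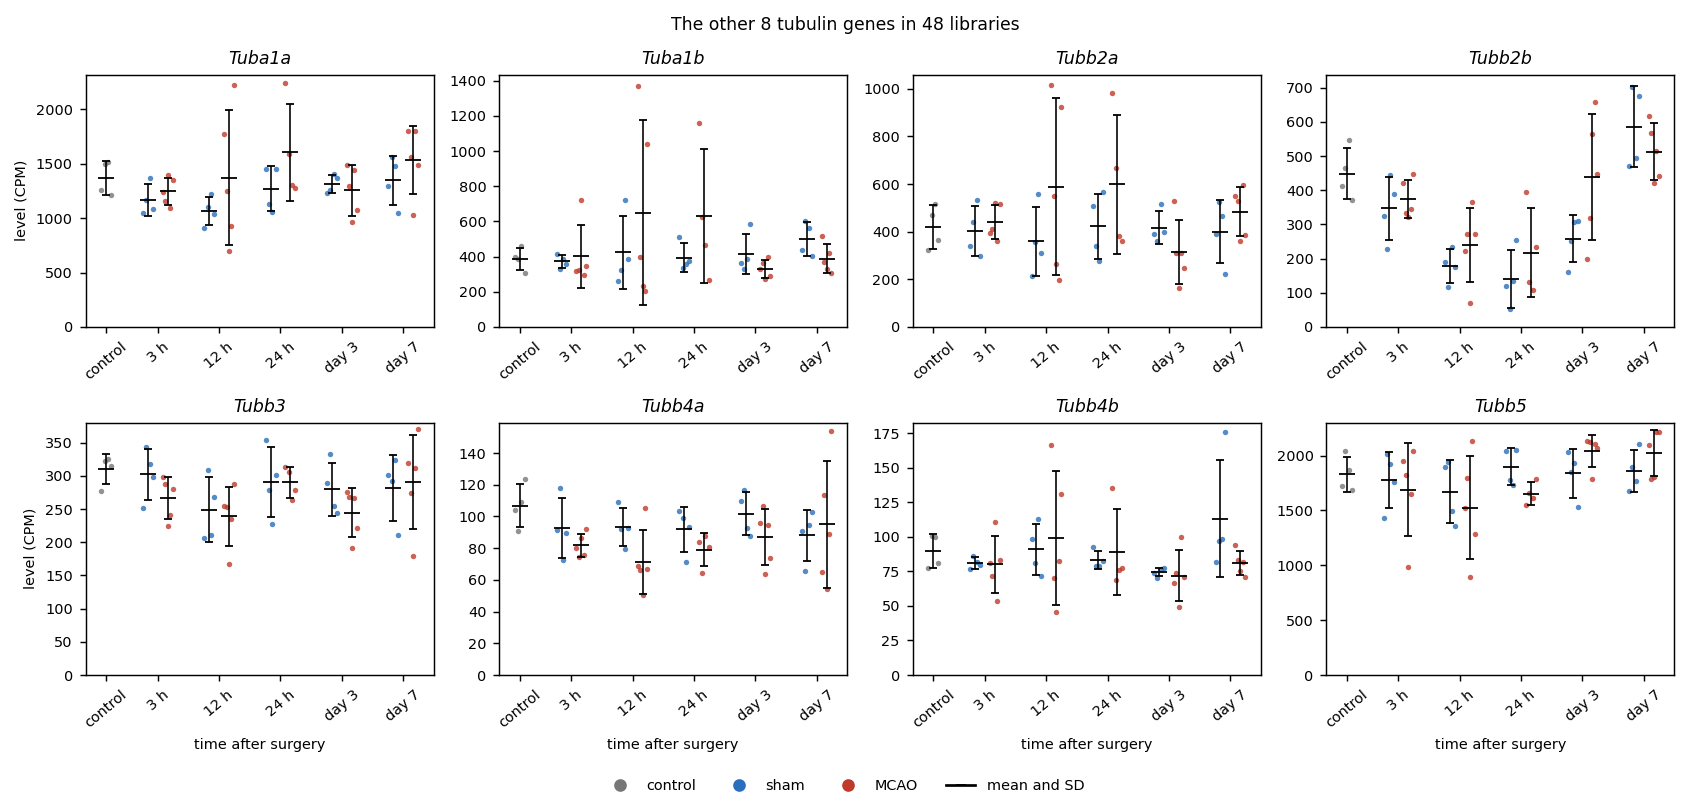
Level of the 8 genes that were not called in CPM in each of 48 libraries (points), by time after surgery, with the mean and SD of each group. The group mean of *Tubb2b* was lowest at 24 h in sham and MCAO alike, though its lowest single MCAO library was at 12 h (68.9 CPM). *Tuba1b* and *Tubb2a* spread widest at 12 h and 24 h after MCAO.

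Sham was compared with control to see what surgery and time alone did to these genes. Whether this contrast entered the choice of the genes is not recorded, so its counts and p-values are descriptions as well. Of the 10 genes 0 were called at 3 h, 12 h, 24 h, day 3 or day 7, and over all genes 0%, 0.0351%, 0.01%, 0% and 0% were called. By unadjusted p under 0.05 there were 0, 1, 1, 2 and 0 members at the 5 times, beside 735, 1086, 863, 731 and 1605 of the 19970 genes, and DESeq2 called 0 members except 1 at 24 h, *Tubb2b*. *Tubb2b* held 412, 466, 546 and 372 CPM in control. The shams held 326, 228, 446 and 388 CPM at 3 h, 190, 116, 235 and 174 CPM at 12 h, 120, 52.5, 135 and 255 CPM at 24 h, 162, 253, 307 and 310 CPM on day 3 and 472, 703, 496 and 676 CPM on day 7. At 12 h, 24 h and day 3 every sham lay below every control library, and on day 7 the 2 groups overlapped again. How many of all genes separate in this way between sham and control was not counted, so nothing is read from it.

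The log2 fold change of *Tubb2b* in sham against control was -1.33 (standard error 0.35, adjusted p = 0.319 from edgeR) at 12 h, -1.67 (standard error 0.36, adjusted p = 0.0779) at 24 h, -0.80 (adjusted p = 1) on day 3 and 0.39 (adjusted p = 0.769) on day 7. The 24 h value was called with DESeq2, with spike-in scaling, with no filter on low counts, with the 2 groups alone in the fit, and without sham replicate D. On the log2 scale late shams (day 3 and day 7) were 0.92 above early shams (standard error 0.22, adjusted p = 0.455 from edgeR), where 0 of the 10 genes and 0.00501% of all genes were called, 1 member and 1000 of all tested genes had an unadjusted p under 0.05, and DESeq2 called 0. The MCAO libraries also had their lowest mean at 24 h, at 375 ± 56.2 CPM (SD, n = 5) at 3 h, 240.0 ± 109 CPM (SD, n = 5) at 12 h, 217 ± 130.3 CPM (SD, n = 4) at 24 h, 438 ± 185 CPM (SD, n = 5) on day 3 and 513 ± 82.8 CPM (SD, n = 5) on day 7. *Tubb6* was at 1.39 to 3.27 CPM in the day 3 shams, with 18 counts against 1 in control. The scaled ratio was 13.9, with an exact 95% interval for counting error from 2.19 to 579, and the gene did not pass (adjusted p = 1 from edgeR).

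The mix of isotypes was described as shares of the summed counts of the members of each family. These shares depend on how well the 3′ end of each gene was captured, and those of the alpha genes also on the reads lost to the stretches they share. In control *Tuba1a* made up 77.9% ± 1.86 (SD, n = 4) of the 3 alpha genes, *Tuba1b* 21.9% ± 1.85 and *Tuba1c* 0.128% ± 0.0989. On day 3 after MCAO *Tuba1c* reached 5.18% ± 4.24 (SD, n = 5), from 0.292% to 10.6%, against 0.0767% ± 0.0326 (SD, n = 4) in sham. On day 7 the share of *Tuba1b* was 17.0% to 22.9% after MCAO and 25.1% to 27.8% in sham. Its CPM overlapped, and the reads with no unique alignment, which the level of *Tuba1b* went against from library to library, were 30.9% to 35.3% of those tallied in the same MCAO libraries and 28.8% to 30.4% in the shams. Their part in the shares was not tested. *Tubb6* was 1.03% ± 0.767 (SD, n = 5) of the 7 beta genes on day 3 after MCAO and 0.0653% ± 0.0254 (SD, n = 4) in sham. *Tubb2b* was 14.0% ± 1.34 (SD, n = 4) of them in control and 4.68% ± 2.40 (SD, n = 4) in the 24 h shams. *Tubb5* was 57.2% ± 2.32 (SD, n = 4) of them in control and 65.2% ± 3.51 (SD, n = 4) in the 24 h shams. The summed beta genes had group means between 2644 CPM (sham at 12 h) and 3494 CPM (MCAO on day 7). The summed alpha genes had group means between 1493 CPM (sham at 12 h) and 2258 CPM (MCAO at 24 h). At 12 h after MCAO the alpha sum ranged from 962 to 3312 CPM over the libraries.

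Within groups, some tubulin genes moved together from library to library. For each pair of genes, the deviations of log2(CPM + 1) from the group means were correlated over 48 libraries, with a two-sided permutation test of 100000 draws within groups and adjustment over the 45 pairs, of which 10 passed 0.05. *Tubb2a* and *Tuba1a* had r = 0.90 (rho = 0.94, p = 1e-05 for each, the smallest these permutations can give, adjusted p = 0.000112), and r = 0.89 without the 2 libraries most extreme in *Tubb2a*. They share 0 of the stretches searched above, and only 0.0072% of 13909 genes had as high an r with *Tubb2a*. *Tubb2a* with *Tuba1b* had r = 0.80 (rho = 0.75) and *Tuba1a* with *Tuba1b* r = 0.80 (rho = 0.79), both with an adjusted p = 0.000112 by permutation, and 0.2013% and 0.0647% of genes were as high. In the 24 control and sham libraries alone the 3 values were 0.95, 0.63 and 0.63, and in the 24 MCAO libraries alone 0.89, 0.86 and 0.84. *Tubb3* with *Tuba1a* had r = 0.65 (rho = 0.60, adjusted p = 0.000112 by permutation).

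*Tubb4b* followed *Tuba1b* (r = 0.68, rho = 0.55, adjusted p = 0.00472 by permutation) and *Tuba1a* (r = 0.63, rho = 0.54, adjusted p = 0.0128 by permutation) over all libraries, but in the control and sham libraries alone r was 0.15 and -0.07. *Tubb6* and *Tuba1c* had r = 0.67 (adjusted p = 0.026 by permutation) but rho = 0.35 (adjusted p = 0.115). In the MCAO libraries alone r was 0.78. Without the 2 libraries most extreme in *Tubb6* it was 0.36, so its size over all libraries rested on those 2. *Tubb5* and *Tuba1c* had the only negative r that passed, -0.41 (rho = -0.49, adjusted p = 0.00784 by permutation). The other 2 pairs past 0.05 were *Tubb2a* with *Tubb3* (r = 0.51) and *Tubb5* with *Tubb3* (r = 0.45, rho = 0.39 with an adjusted p of 0.0725). By rank alone *Tubb2a* with *Tubb4b* passed (rho = 0.46, adjusted p = 0.0382 by permutation), with r = 0.49 (adjusted p = 0.0782 by permutation).

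Library and tissue measures moved with the same genes, by the same permutation test over 180 pairs of a gene and a measure, of which 8 passed 0.05. The level of *Tuba1b* went against the share of reads with no unique alignment, r = -0.76 (rho = -0.61, adjusted p = 0.0018), and r was -0.71 without the 2 libraries most extreme in that share. In 8 libraries that share was more than 3 percentage points below the group mean, *Tuba1b* was above its group mean in 8 of 8, and over the other 40 libraries r was -0.48. For *Tubb2a* and *Tuba1a* the same r was -0.41 and -0.40, which did not pass (adjusted p = 0.139 and 0.114). These genes also went against the summed endothelial markers, with r = -0.69 for *Tubb2a*, -0.65 for *Tuba1a* and -0.55 for *Tuba1b* (adjusted p = 0.0018, 0.0027 and 0.00576 by permutation). Markers of immature neurons went with *Tubb2a* (r = 0.51, adjusted p = 0.0018 by permutation) and *Tuba1a* (r = 0.37, adjusted p = 0.015 by permutation). The other pairs past 0.05 were *Tuba1c* with astrocyte markers (r = -0.69, rho = -0.40) and *Tubb3* with the share of spike-ins (r = -0.55, rho = -0.53). By rank the first of these did not pass (adjusted p = 0.173 by permutation), and its r was -0.48 without the 2 libraries most extreme in astrocyte markers. Another 2 pairs passed by rank alone. *Tubb6* and fibroblast markers had r = 0.69 (adjusted p = 0.0514 by permutation) and rho = 0.60 (adjusted p = 0.00396 by permutation). *Tubb5*, whose level went with the share of reads with no unique alignment and not against it, had r = 0.56 (adjusted p = 0.0571 by permutation) and rho = 0.59 (adjusted p = 0.0173 by permutation). The part of these measures in the shared movement was not tested.

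**Figure D5:**
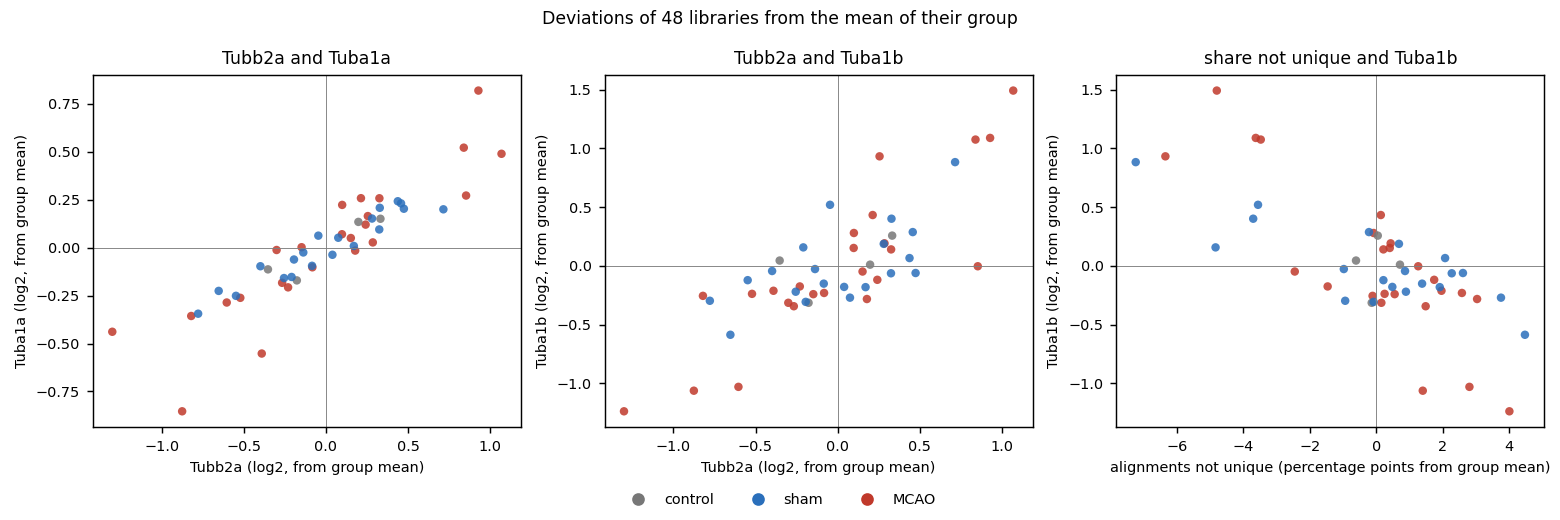
Deviations of 48 libraries from their group means, *Tuba1a* and *Tuba1b* against *Tubb2a* (log2 scale) and *Tuba1b* against the share of reads with no unique alignment (percentage points). The points rise together in the first 2 panels (r = 0.90 and 0.80) and fall in the third (r = -0.76).

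Over the 11 group means of log2(CPM + 1), the 4 genes most like *Tubb6* among 13909 were *Rhbdf1* (r = 0.98), *Hmox1* (r = 0.97), *Gdf15* (r = 0.97) and *Stat3* (r = 0.96), and the tubulin gene most like it was *Tuba1c* (r = 0.93). *Hmox1* is the inducible heme oxygenase, *Gdf15* a stress-induced cytokine and *Stat3* a transcription factor of cytokine signalling. Of these 4 genes 1, *Hmox1*, was also among the first 5 by rank correlation. *Tuba1c* was most like *C5ar1*, the complement C5a receptor (r = 0.99). The closest gene was *Lancl2* for *Tubb2a* (r = 0.95), *Egfl8* for *Tubb5* (r = 0.94), *Mat2b* for *Tubb4a* (r = 0.94), *Clpp* for *Tubb4b* (r = 0.93), *Sidt2* for *Tubb2b* (r = 0.92), *Limk2* for *Tuba1b* (r = 0.91), *Oxa1l* for *Tuba1a* (r = 0.90) and *Col9a2* for *Tubb3* (r = 0.88). The closest tubulin gene was *Tuba1a* for *Tubb2a*, *Tubb2a* for both *Tuba1a* and *Tuba1b*, *Tuba1b* for *Tubb4b*, *Tubb4a* for *Tubb5* and *Tubb3*, *Tubb3* for *Tubb4a*, and *Tubb5* for *Tubb2b*, with r from 0.42 to 0.67. These are descriptions over 11 points that share libraries and depth, each the highest of many.

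Other genes of the family and of microtubule biology were counted from lists chosen by function with earlier results of these data known, so their counts and p-values are descriptions and support nothing by themselves. Of 10 other tubulin genes 6 were tested and 0 were called in any comparison with sham. *Tuba4a*, another alpha isotype, was at 713 ± 156 CPM (SD, n = 5) on day 7 after MCAO and 1151 ± 264 CPM (SD, n = 4) in sham, a log2 fold change of -0.69 that missed the call (adjusted p = 0.0174 from edgeR). *Tuba8*, another alpha isotype, had a log2 fold change of -1.29 on day 7 (adjusted p = 0.0315 from edgeR). The gamma-tubulins of microtubule nucleation, *Tubg1* and *Tubg2*, had -0.29 (adjusted p = 0.339) and -0.66 (adjusted p = 0.0521) on day 7 from edgeR, and *Tubd1*, a delta-tubulin of centrioles, -0.96 (adjusted p = 0.263). *Tube1* was tested at a mean under 2 CPM, and *Tuba3a*, *Tuba3b*, *Tubal3* and *Tubb1* had at most 1 count in a library. The median log2 fold change of the 6 on day 7 was -0.83, against 0.06 over all tested genes.

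Of 22 chaperonin, prefoldin and tubulin cofactor genes that fold and assemble the dimer, 0 were called after MCAO at any time, with medians between 0.03 and 0.15. The counts stand beside 4.02% of all tested genes called on day 3 and 3.5% on day 7, and 1 of 30 or 1 of 18 is near that background. Of 20 tested enzymes that modify tubulin, 3 fell on day 7 and 0 were called at the other times. They were *Ttll11* (log2 fold change -0.97, adjusted p = 7.56e-04 from edgeR) and *Ttll7* (-0.61, adjusted p = 0.00409 from edgeR), which add glutamate chains, and *Ttl* (-0.90, adjusted p = 0.00816 from edgeR), which restores the terminal tyrosine of alpha-tubulin. Of 30 stathmins and microtubule-associated proteins 1 rose on day 3, the spindle factor *Tpx2* (log2 fold change 3.40, adjusted p = 2.74e-05 from edgeR), at 23.4 ± 13.6 CPM (SD, n = 5) against 2.17 ± 0.583 CPM (SD, n = 4). Another fell on day 7, *Tppp*, a tubulin polymerization-promoting protein (log2 fold change -0.58, adjusted p = 0.00355 from edgeR). Of 18 motor genes 1 fell on day 7, the neuronal kinesin *Kif5a* (log2 fold change -0.62, adjusted p = 0.00258 from edgeR), and of 14 genes of gamma-tubulin complexes and severing 0 were called. On the same day 2 of 10 neuronal and 2 of 5 cortical markers were lower and 1 of 7 oligodendrocyte markers higher, and their part in these falls was not tested. DESeq2 called on day 7 1 of the other tubulin genes, 1 folding gene, 4 modifying enzymes, 0 stathmins and associated proteins (so not *Tppp*), 1 gene of gamma-tubulin complexes and severing and 2 motors. At an unadjusted p under 0.05 on day 7 the edgeR counts of the 6 lists in that order were 3, 2, 8, 11, 4 and 9, and at 12 h, where 0 list genes were called by either tool, they were 0, 5, 0, 6, 1 and 5. Over all 19970 tested genes there were 4697 on day 7 and 2913 at 12 h.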

How the data were processed

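RNA from 48 pieces of mouse brain was made into 3′ end libraries (QuantSeq) with added ERCC spike-in RNA. Trimming was done by the authors, who then removed ribosomal and mitochondrial reads, aligned what was left to GRCm38 with STAR 2.5.2b and tallied reads per gene with htseq-count, and the deposited values used here are these raw counts per gene and library. A deposited matrix of transformed log2 values was not used. Gene symbols and coordinates came from a Gencode annotation of GRCm38. Libraries were grouped by the labels' condition and time point.

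The 19970 genes whose counts over all libraries exceeded 10 were fitted in 1 model of 11 group means with edgeR 4.0.16 (quasi-likelihood test, TMM) in R 4.3.3, and called at an adjusted p under 0.01 (Benjamini-Hochberg) with an absolute log2 fold change over 0.58. Alternatives were DESeq2 1.42.0 and its size factors, spike-in scaling, other filters on low counts, only the compared groups, a replicate block, control in place of sham and each library left out. Tables and figures were made with Python 3.11.15, with a pseudocount of 1 on log2 scales. Libraries held 1522668 to 2826735 counts on genes, and intervals cover counting error only. The members and all gene lists were chosen with earlier results of these data known. All 10 members were named, other tubulin genes with a mean of at least 2 CPM were given values, and from each other list at most 5 genes called in a comparison with sham were named, and by likeness of group means the genes closest to the members. A gene picked by likeness is not reported here.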

Additional observations from a re-analysis of the deposited data

Results flagged for a closer look

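A library was singled out where its gap to the nearest other of its group was large against the range of the group (Dixon's test). Of 110 groups of a gene 8 were so marked (7.27%). Chance marks about 1 in 20 for independent, normally distributed values. That rate does not hold here, since a group with a single library above 0 is always marked and genes of the same library are not independent. Nothing is read from the percentage. On day 7 after MCAO replicate C was far above the other 4 libraries for *Tuba1c*, at 84.5 CPM against 4.38 to 9.12 CPM, and for *Tubb6*, at 23.8 CPM against 0 to 6.89 CPM. The same library held 5453 CPM of fibroblast and 4067 CPM of peripheral myeloid markers, whose part in these levels was not tested. At 3 h after MCAO replicate C was high for *Tuba1b*, at 721 CPM against 297 to 347 CPM, and for *Tuba1c*, at 30.6 CPM against 6.61 to 12.1 CPM. In that library 27.1% of the reads tallied had no unique alignment, against 34.0% to 36.1% in the others of its group. *Tubb4b* was high in replicate A at 24 h after MCAO, at 136 CPM against 68.7 to 77.0 CPM. There the share of such reads was 27.5%, against 31.3% to 33.8% in the others of its group. The part of these reads in the 3 levels was not tested. *Tubb5* was low in replicate C on day 3 after MCAO, at 1784 CPM against 2066 to 2131 CPM. The last 2 were single counts of *Tubb6*, 0.562 CPM in control replicate B and 0.369 CPM in sham replicate C at 12 h, where the other libraries of the group had 0.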

How the results depend on the processing

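The number of members called after MCAO was 0, 2, 1, 2 and 2 at the 5 times, and the same with DESeq2, its size factors, spike-in scaling, control in place of sham and the replicate block. With no filter on low counts it was 2 at 3 h and 2 at 24 h (*Tubb6* and *Tuba1c*). With only the compared groups in the fit it was 1 at 3 h (*Tubb6*), 2 at 24 h and 0 on day 7. With each library left out it was 0 to 0 at 3 h, 1 to 2 at 12 h, 0 to 1 at 24 h, 2 to 2 on day 3 and 0 to 2 on day 7. For sham against control at 24 h the count of 0 was 1 (*Tubb2b*) with spike-in scaling, with no filter, with only the compared groups, with DESeq2 and without sham replicate D, and 0 to 1 over all libraries left out. The causes were not tested. Replicate letters did not pair the libraries (correlation of same-letter deviations from -0.21 to 0.13), and a replicate block moved 0 of the counts. The correlation of *Tubb4b* with *Tuba1a* over libraries turned to -0.073 in control and sham alone, chosen after the data were seen, as were the MCAO-only and rank correlations. *Tubb6* and *Tuba1c* in control and sham rest on 0 to 10 counts a library, so folds against them carry wide counting error. Reads shared among the alpha genes limit their split.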

Other observations

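The same deviations from group means in 48 libraries were compared with 13909 genes, and the genes named were picked after the values were seen. The gene that varied most with *Tubb6* was *Apoc2*, an apolipoprotein (r = 0.85, rho = 0.54). It was followed by *Lgals1* (galectin 1, r = 0.81, rho = 0.41) and *Vim* (vimentin, an intermediate filament protein, r = 0.81, rho = 0.67). By rank these 3 values were lower. The gene closest to *Tubb2a* was *Ncam1*, a neural cell adhesion molecule (r = 0.90, rho = 0.90), followed by *Ywhae*, a 14-3-3 protein (r = 0.86, rho = 0.88). These are descriptions with no test, over points that share library and depth.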
